A study of Homo sapiens with 6 samples.

Results

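The genes described here encode the mitophagy receptors BNIP3, BNIP3L, FUNDC1, FKBP8, BCL2L13 and PHB2 and the kinase PINK1, 7 of the 62700 genes in the deposited RNA–Seq tables. The group was chosen by the measured p-value of *BNIP3*, the smallest of all genes between knockdown and control cells. The difference of *BNIP3* is therefore given as a description with no test. Its pathway partners were added by function with earlier results of these data known, so their tests give no independent support. Levels are in TPM, a unit scaled for transcript length and for the library total. All 7 genes had a mean above the minimum of 1 TPM and are among the 14020 genes that passed it and were tested.

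RNA–Seq had been performed on 6 libraries of SK–Hep1, a human liver cancer cell line that the study describes as derived from endothelial cells. The 3 shControl libraries carry a control shRNA by their titles and are called WT by their genotype label, whereas the 3 shRAB30-DT libraries carry an shRNA against the lncRNA *RAB30-DT* and are labelled as its knockdown. The study's methods give lentiviral transduction with pLKO.1 vectors and puromycin selection for stable knockdown lines, and the labels name neither the shRNA vector of each library nor separate cultures. The p-values therefore measure the spread between these libraries, which may be technical.

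Mitophagy is the removal of mitochondria by autophagy, in which a membrane marked with LC3 or GABARAP proteins closes around the organelle and delivers it to the lysosome. The receptors carry a short motif that binds LC3 or GABARAP and so tether the mitochondrion to that membrane. BNIP3 and its close relative BNIP3L (also called NIX) are outer membrane proteins known to be produced under low oxygen through the hypoxia-inducible factors (HIF), and PINK1 acts in a separate route, in which it accumulates on damaged mitochondria and leads to their marking with ubiquitin.

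The promoters of *BNIP3* and *FUNDC1*, both receptors linked to mitophagy in low oxygen, are shown because the groups lay apart for the first and overlapped for the second, and because the promoters differ in the letters ACGTG and GCGTG, the core letters of the element that HIF binds. Since the pair was picked for these differences, it shows no link between the letters and the levels, and such a link was not tested. Each line gives the 250 bases before the RefSeq gene start, 5′ to 3′ on the strand of the gene, from GRCh38.p14. *BNIP3* lies on the minus strand and the bases shown are chr10:131981924-131982173, and those of *FUNDC1*, also on the minus strand, are chrX:44542860-44543109. Capitals mark each match on either strand, so CACGC is GCGTG read on the other strand.

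BNIP3: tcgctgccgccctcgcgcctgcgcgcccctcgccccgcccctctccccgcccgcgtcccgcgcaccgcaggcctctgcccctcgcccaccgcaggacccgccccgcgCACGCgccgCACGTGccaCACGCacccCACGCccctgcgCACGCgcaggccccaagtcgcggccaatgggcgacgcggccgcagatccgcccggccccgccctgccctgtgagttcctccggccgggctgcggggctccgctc

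FUNDC1: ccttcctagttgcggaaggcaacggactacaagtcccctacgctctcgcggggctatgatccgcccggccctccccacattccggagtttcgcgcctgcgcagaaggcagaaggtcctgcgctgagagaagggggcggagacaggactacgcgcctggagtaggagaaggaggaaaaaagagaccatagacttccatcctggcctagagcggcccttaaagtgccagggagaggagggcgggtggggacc

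The search covered the full RefSeq window of each promoter, from 250 bases before to 50 bases after the gene start, on both strands. The *BNIP3* window had ACGTG at −134 and at −133 from the gene start, which are both strands of 1 palindromic place, CACGTG, and GCGTG at −143, −125, −116 and −104. No match of either motif was present in the *FUNDC1* window, in either of the *PHB2* windows or in all but 1 of the *BCL2L13* windows, where GCGTG was found at −17. Of all 35116 promoters, 21.4% held ACGTG and 36.5% held GCGTG, and 1.63% held at least 4 matches of GCGTG. Among the 14674 promoters of tested genes these shares were 25.9%, 49.3% and 2.41%. The *BNIP3* window had a GC content of 80.7%, above the median of 65% for promoters of tested genes, and both motifs hold mostly G and C. RefSeq windows were found for 4 of the 7 genes (*BNIP3*, *FUNDC1*, *BCL2L13* and *PHB2*).

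Before the results, the libraries and labels were checked. *RAB30-DT*, the targeted lncRNA, was at 18.2, 11.5 and 13.9 TPM in shControl replicates 1, 2 and 3 and at 11.9, 10.8 and 6.5 TPM in shRAB30-DT replicates 1, 2 and 3, so the groups overlapped (log2 fold change −0.55, standard error 0.27, adjusted p = 0.355 from limma). The study reports that qPCR showed the *RAB30-DT* knockdown in this cell line, and it does not say whether the RNA was that of these libraries. The depth of the libraries is unknown because TPM hold no read numbers. Of the 7 endothelial markers only *ENG* reached a mean of 1 TPM and *KDR* was listed at 0 in every library, and of the 8 hepatocyte markers 5, with *ALB* and *HNF4A* among them, were listed at 0 in every library. The 6 mesenchymal markers all passed the filter and summed to 5499 to 5837 TPM in shControl and 5900 to 6376 TPM in shRAB30-DT cells. The largest part of this sum was *VIM*, at 3793 to 3997 TPM in shControl and 4336 to 4784 TPM in shRAB30-DT libraries. *SPARC* (1465 to 1513 against 1141 to 1260 TPM) and *THY1* (102 to 148 against 76 to 98.7 TPM) were lower in every shRAB30-DT library. Of the 4 leukocyte markers, 3 were listed at 0 in every library, and the summed levels were 0 to 1.09 TPM in shControl and 0.03 to 0.06 TPM in shRAB30-DT cells. Summed endothelial markers were at 64.9 to 88.3 and 62.8 to 83 TPM, and summed hepatocyte markers at 19.2 to 25.4 and 28.5 to 37.3 TPM. The hepatocyte sum was carried by *SERPINA1*, at 18.1 to 24 TPM in shControl and 28.2 to 37.2 TPM in shRAB30-DT libraries, whereas *ASGR1* was lower in every shRAB30-DT library, at 0.5 to 1.4 against 0.08 to 0.38 TPM, and *APOA1* was above 0 in 1 library alone, at 0.46 TPM. The part of these marker differences in the results below was not tested.

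*BNIP3* (ENSG00000176171.12, hg38 chromosome 10, 131967684 to 131981967, minus strand) was at 108, 97.9 and 101 TPM in shControl replicates 1, 2 and 3. In shRAB30-DT replicates 1, 2 and 3 it was at 494, 439 and 349 TPM. Every shRAB30-DT library was far above every shControl library, and the lowest, shRAB30-DT replicate 3, still exceeded the highest shControl library more than 3 times. In RNA of whole cultures, more cells with *BNIP3* and more *BNIP3* RNA per cell cannot be told apart. The mean was 102 ± 5.39 TPM (SD, n = 3) in shControl and 427 ± 73.3 TPM (SD, n = 3) in shRAB30-DT cells, a ratio of 4.18. On the scale of log2(TPM + 1) the difference was 2.04 (standard error 0.16), and 37 of the 14020 genes had a larger positive one. The spread was wider at the higher level, with a coefficient of variation of 17.2% in shRAB30-DT against 5.27% in shControl cells. Among all tested genes *BNIP3* moved from rank 1372, 1565 and 1492 by level in the shControl libraries to rank 223, 253 and 322 in the shRAB30-DT libraries. Its difference lay between 1.93 and 2.20 under all 18 other ways of processing the values.

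*BNIP3L* (ENSG00000104765.16, hg38 chromosome 8, 26383054 to 26505636, plus strand) shares with *BNIP3* the outer membrane location and is known for clearing mitochondria from maturing red blood cells. It was at 67.7, 61.3 and 77.7 TPM in shControl replicates 1, 2 and 3 and at 179, 179 and 153 TPM in shRAB30-DT replicates 1, 2 and 3. The groups did not overlap, and as for *BNIP3* the lowest level in shRAB30-DT cells was that of replicate 3. *BNIP3L* rose from 68.9 ± 8.25 TPM (SD, n = 3) to 170 ± 14.8 TPM (SD, n = 3), which is 1.30 higher on the log2 scale (standard error 0.16, 95% interval 0.93 to 1.66, limma's adjusted p over all genes tested = 0.024). It was the only 1 of the 6 genes other than *BNIP3* that passed this test, where 1.04% of all genes tested passed (146 genes), 0.371% of them higher (52 genes) and 0.670% lower (94 genes) in shRAB30-DT cells. *BNIP3L* was picked with earlier results of these data known, so its p-value gives no independent support. With median-of-ratios scaling 68 genes were higher and 68 lower, and with quantile normalization 78 and 83. The call of *BNIP3L* was lost when any 1 of 4 libraries was left out, fits in which 0.0856% to 0.129% of all genes tested passed. Without shControl replicate 2 its log2 fold change was 1.22 with an adjusted p of 0.107, and without shRAB30-DT replicates 1, 2 and 3 it was 1.26, 1.26 and 1.37 with adjusted p of 0.0935, 0.138 and 0.0904.

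**Figure D1:**
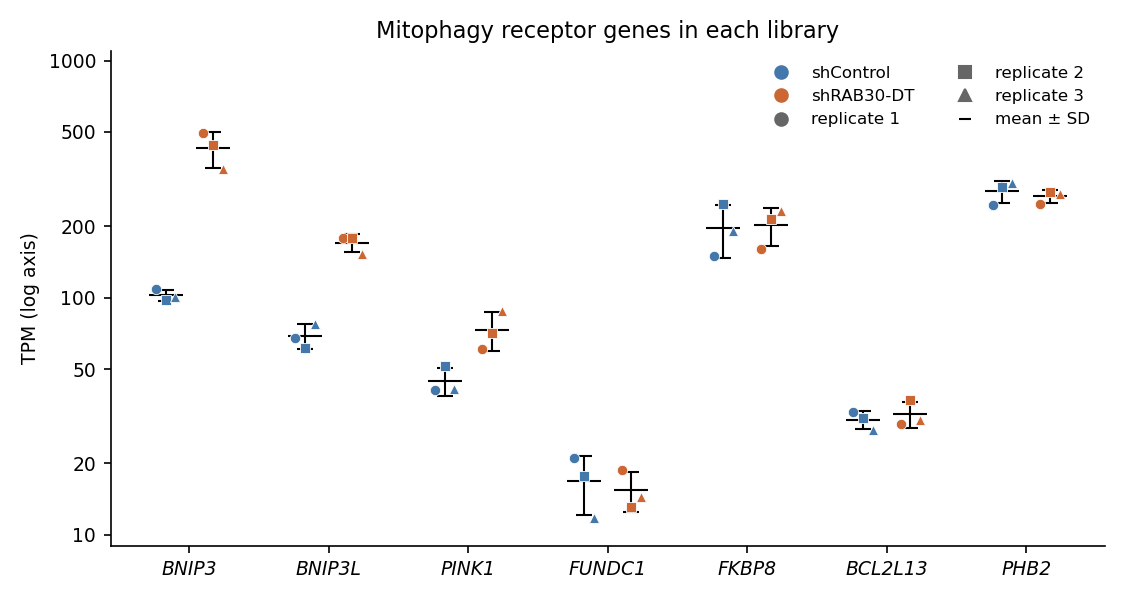
TPM (log axis) of the 7 genes in each of the 6 libraries, with shControl in blue, shRAB30-DT in orange, a marker shape for each replicate number, and lines for the mean and SD of each group (n = 3). *BNIP3*, *BNIP3L* and *PINK1* show no overlap between groups, with *BNIP3* at 97.9 to 108 TPM in shControl and 349 to 494 TPM in shRAB30-DT libraries, whereas the points of the other 4 genes are intermingled.

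*PINK1* (ENSG00000158828.8, hg38 chromosome 1, 20633458 to 20651511, plus strand) was at 40.9, 51.6 and 41 TPM in shControl replicates 1, 2 and 3. It was at 60.6, 71 and 87.5 TPM in shRAB30-DT replicates 1, 2 and 3. Every shRAB30-DT library was above every shControl library, but here shRAB30-DT replicate 3 was the highest and replicate 1 the lowest, the reverse of their order for *BNIP3*. The means were 44.5 ± 6.14 and 73 ± 13.6 TPM (SD, n = 3 for both), and the difference of 0.69 on the log2 scale (standard error 0.19, 95% interval 0.25 to 1.14) did not pass the test (limma, adjusted p = 0.134). With limma's arrayWeights, which gives each library its own weight, the log2 fold change was 0.53 with an adjusted p of 0.0246. With the GC trend taken out of every library it was 0.71 with an adjusted p of 0.0368. These fits called 23% and 8.07% of all genes tested. The weights were 3 for shControl replicate 2 and 4.39 for shRAB30-DT replicate 2, against 0.316 to 0.948 for the other libraries. The weighted fit thus rested mainly on replicate 2 of each group. Of the 6 genes other than *BNIP3*, *BNIP3L* and *PINK1* had all 3 shRAB30-DT above all 3 shControl libraries, as 9.89% of all genes tested did. None of the 6 had all 3 shRAB30-DT libraries below, as 13.4% of all genes tested did.

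*FUNDC1*, *FKBP8* and *BCL2L13* encode further outer membrane receptors. *FUNDC1* (ENSG00000069509.6, chromosome X, 44523639 to 44542859, minus strand) is known for mitophagy in low oxygen, and was at 21, 17.6 and 11.8 TPM in shControl and 18.8, 13.1 and 14.4 TPM in shRAB30-DT replicates 1, 2 and 3. *FKBP8* (ENSG00000105701.16, chromosome 19, 18531751 to 18544077, minus strand), a relative of the FK506-binding proteins, was at 150, 249 and 191 TPM in shControl and 160, 215 and 231 TPM in shRAB30-DT replicates 1, 2 and 3. *BCL2L13* (ENSG00000099968.18, chromosome 22, 17628855 to 17730855, plus strand), regarded as a mammalian counterpart of the yeast receptor Atg32, was at 33, 31 and 27.8 TPM in shControl and 29.4, 37.1 and 30.6 TPM in shRAB30-DT replicates 1, 2 and 3. In all 3 genes the groups overlapped, and the spread among the shControl libraries of *FKBP8* was wider than the difference of its means. *FUNDC1* differed by −0.095 on the log2 scale (95% interval −0.67 to 0.48, limma's adjusted p = 0.883). That of *FKBP8* was 0.055 (95% interval −0.46 to 0.57, adjusted p = 0.927), and that of *BCL2L13* was 0.073 (95% interval −0.33 to 0.48, adjusted p = 0.871). The widest of these intervals, that of *FUNDC1*, reached from −0.67 to 0.48, and the sign of each estimate turned under at least 1 alternative.

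*PHB2* (ENSG00000215021.10, chromosome 12, 6965327 to 6970780, minus strand) encodes prohibitin 2, a protein of the inner membrane that binds LC3 once the outer membrane has ruptured. It was at 246, 294 and 303 TPM in shControl and 249, 279 and 273 TPM in shRAB30-DT replicates 1, 2 and 3. The groups overlapped, and all shRAB30-DT levels lay inside the shControl range. Its log2 fold change was −0.068 (standard error 0.14, 95% interval −0.39 to 0.26, adjusted p = 0.847 from limma), and quantile normalization turned it to 0.14.

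**Figure D2:**
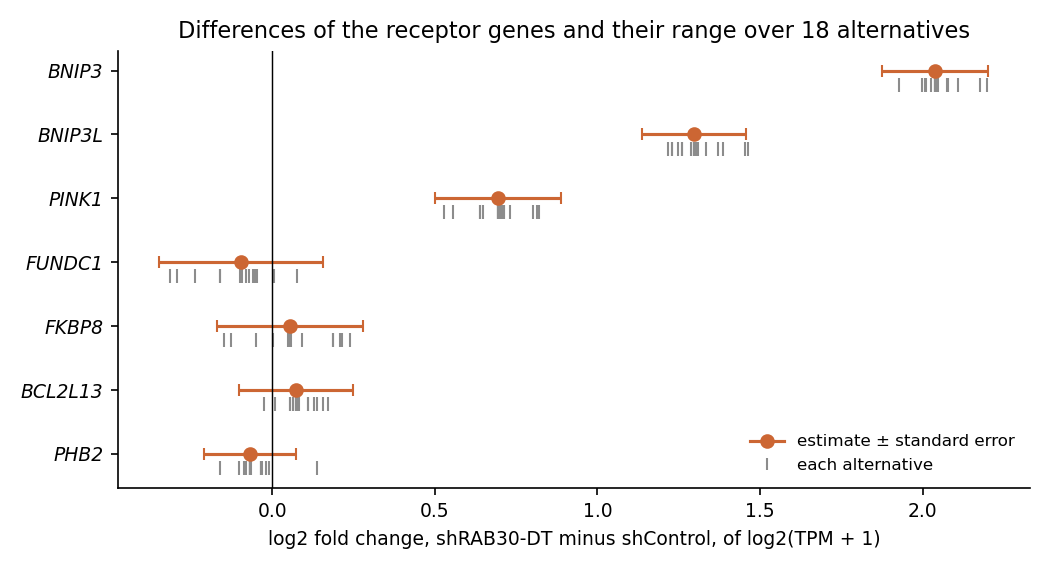
Log2 fold change of each gene, shRAB30-DT minus shControl on the scale of log2(TPM + 1), with lines for the standard error and a tick for each of the 18 alternatives. *BNIP3* stands at 2.04, *BNIP3L* at 1.30 and *PINK1* at 0.69, and the ticks of the other 4 genes lie on both sides of 0.

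The order of the levels differed between the groups. In shControl cells *PHB2* was first, followed by *FKBP8*, *BNIP3*, *BNIP3L*, *PINK1*, *BCL2L13* and *FUNDC1*. The ranges of the neighbours *PHB2* and *FKBP8* overlapped, although *PHB2* was the higher of the pair in 3 of 3 libraries, and all other neighbours were separate. In shRAB30-DT cells *BNIP3* came first, followed by *PHB2*, *FKBP8*, *BNIP3L*, *PINK1*, *BCL2L13* and *FUNDC1*, with overlap between *FKBP8* and *BNIP3L* alone. The rank of *BNIP3* among the 7 genes was 3 in each shControl library and 1 in each shRAB30-DT library.

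The summed level of the 7 genes was 667, 802 and 753 TPM in shControl and 1191, 1234 and 1139 TPM in shRAB30-DT replicates 1, 2 and 3. The sum without *BNIP3* and *BNIP3L* was 490, 643 and 575 TPM in shControl and 518, 616 and 637 TPM in shRAB30-DT replicates 1, 2 and 3. With *BNIP3* and *BNIP3L* the groups were far apart, and without them they overlapped (570 ± 76.5 and 590 ± 63.7 TPM, SD, n = 3 each). *BNIP3* made up 16.3%, 12.2% and 13.4% of the sum in shControl and 41.5%, 35.6% and 30.6% in shRAB30-DT replicates 1, 2 and 3. The share of *BNIP3L* was 9.37% ± 1.5 in shControl and 14.3% ± 0.798 in shRAB30-DT cells (SD, n = 3 each). The shares of *PHB2* and *FKBP8* were lower in shRAB30-DT cells, at 22.5% ± 1.56 against 37.9% ± 2.03 and at 17.1% ± 3.44 against 26.3% ± 4.37 (SD, n = 3 each), while their levels overlapped between groups. The ratio of *BNIP3* to *BNIP3L* was 1.6, 1.6 and 1.3 in shControl and 2.76, 2.45 and 2.28 in shRAB30-DT replicates 1, 2 and 3, so *BNIP3* differed by more than *BNIP3L* between the groups. These sums and ratios contain *BNIP3* and are descriptions.

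**Figure D3:**
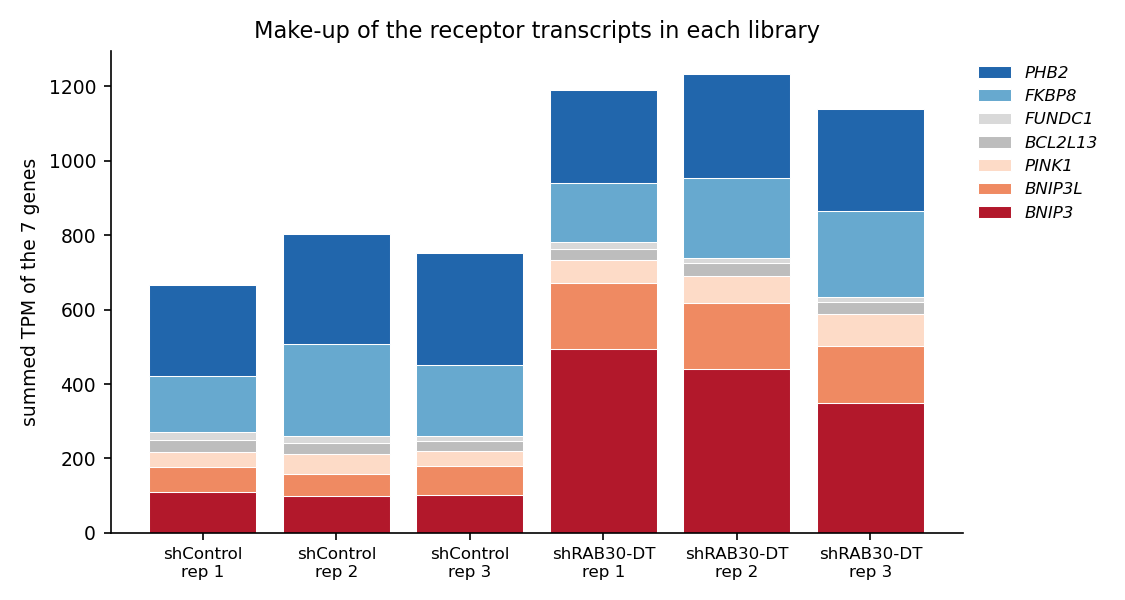
Stacked levels in TPM of the 7 genes in each of the 6 libraries. The stack reaches 667 to 802 TPM in shControl and 1139 to 1234 TPM in shRAB30-DT libraries, and the *BNIP3* segment grows from 12.2% to 16.3% of the stack to 30.6% to 41.5%.

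Reads of near-identical copies and of overlapping genes could enter these levels. The annotation holds 44 pseudogenes of *BNIP3*, of which *BNIP3P1*, *BNIP3P5* and *BNIP3P11* were above 0 TPM in any library, and they summed to 0.09 to 0.92 TPM in shControl and 1.87 to 2.57 TPM in shRAB30-DT libraries. These sums are small beside *BNIP3* and were higher in the same libraries. A lncRNA on the opposite strand, ENSG00000273521 (chromosome 10, 131980240 to 131981337), lies within *BNIP3* and was at 0.37, 0.4 and 0.53 TPM in shControl and 4.06, 3.3 and 2.34 TPM in shRAB30-DT replicates 1, 2 and 3. It followed the order of *BNIP3* in the shRAB30-DT libraries, and since no strand marking of the libraries is stated, reads of the 2 genes cannot be told apart. Another opposite-strand lncRNA within *BNIP3*, ENSG00000277959, had overlapping groups. It was at 0, 2.9 and 4.12 TPM in shControl and 1.07, 0.83 and 1.89 TPM in shRAB30-DT replicates 1, 2 and 3. *PNMA2*, which overlaps *BNIP3L* by 936 bases on the opposite strand, averaged 18.8 TPM in shControl and 19.7 TPM in shRAB30-DT cells. *PINK1-AS*, on the strand opposite to *PINK1* over 8855 bases, was at 2.6, 2.34 and 2.43 TPM in shControl and 1.98, 1.95 and 2.27 TPM in shRAB30-DT replicates 1, 2 and 3, so it was lower where *PINK1* was higher. The sole *PHB2* pseudogene was listed at 0.

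Outside these 7 genes, the question was whether other parts of the mitophagy route changed with them. Apart from HIF targets, 9 lists of pathway genes held 137 different genes, of which 134 were tested. An adjusted p under 0.05 in limma was reached by 0 of them, beside 1.04% of all genes tested. A count of 0 is near that share, and in the shorter single lists below it says little about their genes. An unadjusted p under 0.05 was found for 24 (17.9%) of the 134 against 16.8% of all genes tested. All 3 shRAB30-DT libraries were above all shControl libraries for 15 of the 134 (11.2%) and below for 19 (14.2%), near the 9.89% and 13.4% of all genes. Their median log2 fold change was −0.05 against −0.037 over all genes tested. The count of 0 rested on the fit, and the largest count was 34 (25.4%) with arrayWeights, a fit that called 23% of all genes.

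The relatives and partners of the receptors (8 genes tested) had a median log2 fold change of 0.098, with none called. The largest estimates were those of *BCL2L2* at 0.58 (adjusted p = 0.279 from limma) and *BCL2L1* at 0.44 (adjusted p = 0.255), both anti-apoptotic relatives of BCL2. *PHB1*, the partner of PHB2 in the prohibitin ring, was at 335, 363 and 414 TPM in shControl and 284, 277 and 339 TPM in shRAB30-DT replicates 1, 2 and 3, with overlapping groups. Among the 15 kinases, phosphatases, ligases and transcription factors that act on the receptors none was called. *CSNK2A2*, a catalytic subunit of casein kinase 2, which phosphorylates FUNDC1, was at 50.1, 43.3 and 36.3 TPM in shControl and 84.2, 83.9 and 64 TPM in shRAB30-DT replicates 1, 2 and 3. All its shRAB30-DT levels were above its shControl levels (log2 fold change 0.82, standard error 0.19, adjusted p = 0.0922). *ARNT*, the partner subunit of the HIF proteins, was at 20.4, 22.6 and 17.3 TPM in shControl and 13.1, 12.9 and 12.1 TPM in shRAB30-DT replicates 1, 2 and 3 (log2 fold change −0.62, standard error 0.18, adjusted p = 0.149).

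In the PINK1 and ubiquitin route all 21 genes reported were tested and none was called, with a median log2 fold change of −0.11. *OMA1*, a protease of the inner membrane that can cleave PINK1, was at 20.7, 20.2 and 11.3 TPM in shControl and 9.13, 8.41 and 8.04 TPM in shRAB30-DT replicates 1, 2 and 3, without overlap (log2 fold change −0.90, standard error 0.26, adjusted p = 0.138). *RHOT2*, a mitochondrial GTPase of organelle transport, had a log2 fold change of −0.87 (adjusted p = 0.282), with shControl libraries from 35.3 to 93.1 TPM. In this list 6 of 21 genes had all shRAB30-DT below all shControl libraries and 0 had them above, beside 13.4% and 9.89% of all genes tested.

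Further along the route, the 9 genes listed as autophagy adaptors had a median log2 fold change of 0.18 and none was called. Their largest estimates were *AMBRA1* at −0.43 (adjusted p = 0.612 from limma) and *OPTN* at 0.37 (adjusted p = 0.365), both with overlapping groups. The 6 tested members of the LC3 and GABARAP family, the membrane proteins that the receptors bind, had a median of 0.33, against −0.037 over all genes tested. None of them was called. *MAP1LC3B* was at 105, 79.2 and 51.3 TPM in shControl and 143, 119 and 112 TPM in shRAB30-DT replicates 1, 2 and 3 (log2 fold change 0.71, adjusted p = 0.226), and *GABARAPL1* differed by 0.40 (adjusted p = 0.369). Among the 28 tested genes of the core autophagy machinery, *WIPI1*, a lipid-binding protein of the forming membrane, was at 18.5, 19.5 and 11.4 TPM in shControl and 36.9, 32.1 and 40.9 TPM in shRAB30-DT replicates 1, 2 and 3. Its shRAB30-DT levels were all higher, but it did not pass the test (log2 fold change 1.14, standard error 0.24, adjusted p = 0.0716). *ULK2*, a kinase that starts autophagy, was lower by estimate (log2 fold change −0.91, adjusted p = 0.194).

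For mitochondrial fission and fusion, the 11 tested genes had a median of −0.27, against −0.037 over all genes tested, and none was called. The largest were *MTFR2* at −0.59 (adjusted p = 0.276 from limma) and *YME1L1*, an inner membrane protease, at −0.53 (adjusted p = 0.345). Of the 19 lysosomal genes none was called (median 0.029). *NEU1*, a lysosomal sialidase, was at 14.8, 20.7 and 25.2 TPM in shControl and 36.3, 41.6 and 50.6 TPM in shRAB30-DT replicates 1, 2 and 3, without overlap (log2 fold change 1.06, standard error 0.23, adjusted p = 0.082), and *LAMP2*, a lysosomal membrane protein, differed by 0.64 (adjusted p = 0.344). Genes that mark mitochondrial content (17 tested) had a median of −0.18 with none called. *ATP5F1B*, a subunit of ATP synthase, was at 866, 854 and 892 TPM in shControl and 665, 660 and 664 TPM in shRAB30-DT replicates 1, 2 and 3 (log2 fold change −0.39, standard error 0.11, adjusted p = 0.124). The groups were narrow and well apart. *HSPD1*, a mitochondrial chaperone, differed by −0.59 (adjusted p = 0.145).

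The list of other HIF target genes, to which *BNIP3* and *BNIP3L* were not added, differed from the lists above in its counts. It was chosen with earlier results of these data known and gives no independent support. Of its 19 tested genes, 7 passed the test and all 7 rose in shRAB30-DT cells, beside 0.371% of all genes tested. The median of the 19 was 0.75, and 13 had all shRAB30-DT libraries above all shControl libraries, beside 9.89% of all genes tested. *PFKFB4*, an enzyme that controls glycolytic flux, rose by 2.46 on the log2 scale (adjusted p = 0.0215 from limma), and *PGK1*, a glycolytic enzyme, by 1.36 (adjusted p = 0.00861). *PDK1*, a kinase that restrains pyruvate entry into mitochondria, rose by 1.75 (adjusted p = 0.0368). The collagen prolyl hydroxylases *P4HA1* and *P4HA2* rose by 1.79 (adjusted p = 0.0494) and 1.35 (adjusted p = 0.0252). *DDIT4*, a stress-induced inhibitor of mTORC1, rose by 1.45 (adjusted p = 0.0433) and *KDM3A*, a histone demethylase, by 1.24 (adjusted p = 0.0285).

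Not all HIF targets moved with *BNIP3*. *LDHA*, *SLC2A1*, *MXI1*, *ENO1*, *PFKFB3* and *ADM* had overlapping groups, with estimates of 0.18, 0.23, 0.72, −0.13, −0.22 and −0.56. The overlap of *MXI1* was narrow, at 19.57 TPM in shRAB30-DT replicate 3 against 19.88 TPM in shControl replicate 1. *CA9* was listed at 0 in every library. *ANKRD37*, *HK2*, *EGLN1*, *NDRG1*, *VEGFA* and *ALDOA* were not called, although their groups lay apart, with estimates of 1.46, 0.79, 0.75, 0.71, 0.70 and 0.54. The estimate of *ADM* rested on shControl replicate 3, at 301 TPM against 68.1 and 87.2 TPM in the other shControl libraries, and was 0.089 without it. The mRNA of *HIF1A* differed by 0.35 on the log2 scale (limma's adjusted p = 0.589). That of *EPAS1*, which encodes HIF-2α, differed by 0.46 (adjusted p = 0.419). Both had overlapping groups, and these RNA levels do not measure the HIF proteins. The count of 7 rested on single libraries, as did the count over all genes tested. It was 0 without shControl replicate 2 and 0 without shRAB30-DT replicate 1 or 2, 1 without shRAB30-DT replicate 3, 8 without shControl replicate 1 and 5 without shControl replicate 3. Over all genes, 0.0856% were called without shControl replicate 2, and 0.129%, 0.108% and 0.114% without shRAB30-DT replicates 1, 2 and 3. Without shControl replicates 1 and 3 the shares were 3.49% and 1.14%, against 1.04% with all libraries.

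**Figure D4:**
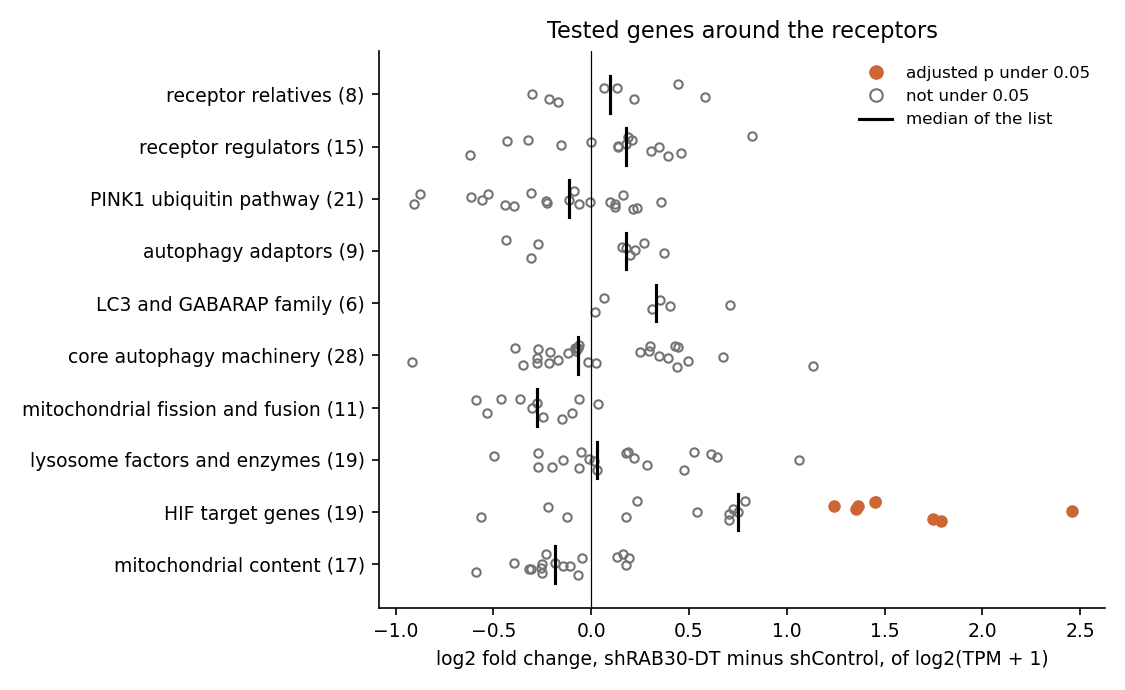
Log2 fold change (shRAB30-DT minus shControl, log2(TPM + 1) scale) of each tested gene in the 10 pathway lists, with a filled point for genes with an adjusted p under 0.05, an open point for the others and a vertical bar for the median of each list. Filled points are found in the HIF target list alone, with 7 of 19.

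To find the genes most like *BNIP3*, the 10421 genes other than the 7 described here that averaged 5 TPM or more were ranked by Pearson's r with *BNIP3* over the 6 libraries, on log2(TPM + 1). The libraries fall into the 2 groups, so r rests mainly on the difference between them, and it is given as a description. The highest were *KDM3A* (r = 0.996), *TXNIP* (r = 0.996), *PGK1* (r = 0.995), *DNHD1* (r = 0.995), *TBC1D20* (r = 0.993), *DCTN2* (r = 0.992), *ANXA2R-OT1* (r = 0.990) and *LINC01588* (r = 0.990), and 111 genes had r of at least 0.95. *KDM3A*, *TXNIP*, *PGK1* and *DNHD1* passed the limma test. *TBC1D20*, *DCTN2*, *ANXA2R-OT1* and *LINC01588* did not (adjusted p = 0.347, 0.112, 0.131 and 0.0668). *TXNIP*, which encodes a thioredoxin-binding protein, was at 28.3, 22 and 19.4 TPM in shControl and 171, 155 and 107 TPM in shRAB30-DT replicates 1, 2 and 3. As with *BNIP3*, replicate 1 was the highest and replicate 3 the lowest of its shRAB30-DT libraries. Of the other receptors, *BNIP3L* had r = 0.988 and *PINK1* r = 0.808. *BCL2L13* had r = 0.298, *FKBP8* −0.0046, *FUNDC1* −0.107 and *PHB2* −0.373.

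**Figure D5:**
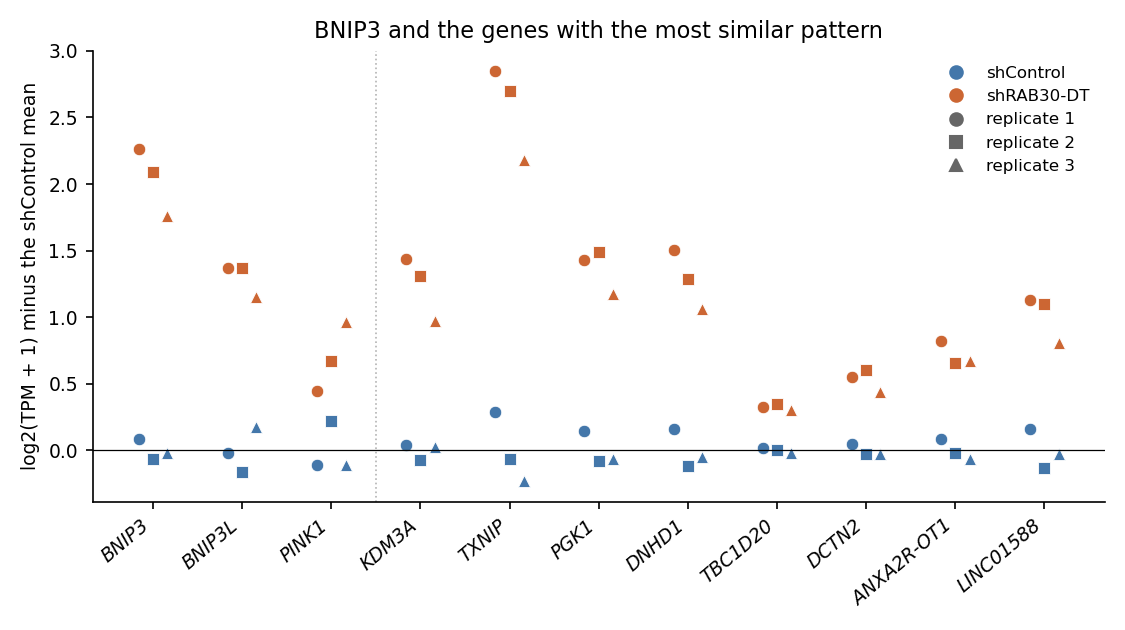
log2(TPM + 1) in each library minus the shControl mean of the gene, for *BNIP3*, *BNIP3L* and *PINK1* (left of the dotted line) and for the 8 genes with the highest Pearson r with *BNIP3* (right), with a point per library. All 8 have every shRAB30-DT library above every shControl library, as 9.89% of all genes tested did, but their choice by r with *BNIP3* favours such genes. Their differences range in size from *TBC1D20* (the smallest) to *TXNIP* (the largest), and *PINK1* has the opposite order of shRAB30-DT replicates.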

How the data were processed

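RNA–Seq was performed on poly(A)-selected RNA of 6 SK–Hep1 libraries, 3 per group. The study's methods name fastp, STAR, samtools and RSEM, whereas the submitters' processing notes name fastp, HISAT2 2.0.5 and hg38. The authors deposited gene-level TPM rounded to 2 decimals, which hold no read numbers, so depth and counting error are unknown. All 62700 identifiers matched GENCODE release 44, used for positions.

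Groups came from the sample titles. log2(TPM + 1) was fitted with limma 3.58.1 (lmFit, eBayes with trend, 2-sided) in R 4.3.3 over the 14020 genes averaging 1 TPM or more, without a replicate block or normalization between libraries, with a threshold of 0.05 on the Benjamini–Hochberg adjusted p. Fold changes on this scale understate those of low genes. The fit was tested on simulated data. Tables and figures were made in Python 3.11.15 with pandas 2.3.3, numpy 2.4.6 and matplotlib 3.10.9. The labels do not say whether same-numbered libraries are paired. After subtraction of the group means, their correlation was 0.41, 0.0359 and 0.279 for replicates 1, 2 and 3. With the GC trend removed it was 0.196, 0.0153 and 0.126. shControl replicates 1 and 3 were most like the same-numbered shRAB30-DT library, and shControl replicate 2 was most like shRAB30-DT replicate 3. These values leave partial pairing open, and a replicate block is among the alternatives.

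The members and lists were chosen with earlier results of these data known. Named by rule were the 7 genes, their copies above 0 TPM, the called genes of each list or otherwise its 2 largest estimates, and the 8 genes most like *BNIP3*. *PHB1*, *HIF1A*, *EPAS1* and the HIF targets that were not called were named after their values were seen. 1 gene of these lists is not reported here. Alternatives were leaving out each library, a replicate block, removal of the GC trend (loess, span 0.3) with and without the block, arrayWeights, eBayes with no trend, quantile normalization, median-of-ratios scaling, TPM rescaled after dropping mitochondrially encoded genes, a minimum mean of 5 TPM or none, and pseudocounts of 5 and 0.1.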

Additional observations from a re-analysis of the deposited data

How the results depend on the processing

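Of the 18 alternatives, all kept the direction of *BNIP3* (log2 fold change 1.93 to 2.20) and of *BNIP3L* (1.22 to 1.46, adjusted p from limma 0.000266 to 0.138). *BNIP3L* was not called without a filter (1.30, adjusted p = 0.0535), and its estimate lay between 1.22 and 1.39 with each library left out. *PINK1* passed the threshold with arrayWeights (0.53) and with the GC trend removed (0.71), fits that called 23% and 8.07% of all genes tested. Its adjusted p ranged from 0.0246 to 0.417. The estimates near 0 changed sign. With each library left out they ranged from −0.32 to 0.076 for *FUNDC1*, −0.13 to 0.24 for *FKBP8* and −0.026 to 0.14 for *BCL2L13*. arrayWeights gave −0.15 for *FKBP8*, and quantile normalization 0.14 for *PHB2*. Of the 6 genes other than *BNIP3*, 0 were called without a filter, 2 with arrayWeights, 2 with the GC trend removed, and 0 to 1 with a library left out.

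Among all genes tested, the 146 calls became 13 without a filter, 3218 with arrayWeights, 1132 with the GC trend removed and 12 to 489 with each library left out (12, 18, 15 and 16 without shControl replicate 2 and shRAB30-DT replicates 1, 2 and 3, and 489 without shControl replicate 1). The replicate block gave 861 calls, and 1134 together with removal of the GC trend. With the block *BNIP3L* was called (adjusted p = 0.0143) and *PINK1* was not (adjusted p = 0.0543). The count of 0 called among the 134 pathway genes became 1 with quantile normalization (*WIPI1*), 34 with arrayWeights, 9 with the block, 16 with the GC trend removed, 14 with both, and 0 to 2 with a library left out. Beside all genes tested in the same fit, the first 3 shares were 0.746% against 1.15%, 25.4% against 23% and 6.72% against 6.14%. They were 11.9% against 8.07% with the GC trend removed and 10.4% against 8.09% with both. The 7 HIF targets called became 0 without a filter, 4 without the eBayes trend, 14 with arrayWeights, 11 with the block, 12 with the GC trend removed and 11 with both, and 0 to 8 with a library left out. For all of these the cause was not tested.

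The 3 libraries per group and the unknown depth limit the precision. The deviation of each library from the mean followed the GC content of genes, with a Spearman's rho (across genes) equal to −0.595, 0.292 and 0.483 in shControl and −0.518, 0.0165 and 0.324 in shRAB30-DT replicates 1, 2 and 3.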
